A study of Homo sapiens with 6 samples.

Results

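The genes described here are the 5 lysyl oxidases (LOX, LOXL1, LOXL2, LOXL3 and LOXL4), the 3 lysyl hydroxylases (PLOD1, PLOD2 and PLOD3) and the catalytic alpha subunits P4HA1 and P4HA2 of prolyl 4-hydroxylase, 10 genes of the 19775 that had a probe set with a single gene symbol on the array. The family was picked because LOX and LOXL4 differed in opposite directions between the groups compared, so the difference between the groups had been seen before the genes were chosen. It is therefore given as a description, without p-values, and the counts below support no statement about the family. RNA of U251 cells, a human glioma line, was hybridised to 6 Affymetrix arrays, 3 of cells overexpressing PARK2, the gene for the ubiquitin ligase parkin, and 3 of control cells overexpressing GFP. Both were stable lines made by viral infection and selection with puromycin, so both carry a transgene and both went through selection. The arrays of a group are labelled as biological replicates, but whether these were separate cultures or infections is not stated, so the spread within a group may be technical. It is not said either whether the lines are clones, so a difference between the transgenes and a difference between the lines cannot be told apart.

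Collagen chains are modified in the endoplasmic reticulum before they leave the cell. Prolyl 4-hydroxylase makes the hydroxyprolines that keep the collagen helix stable at body temperature, and lysyl hydroxylases make hydroxylysines, which carry sugars and give stronger cross-links; these enzymes need iron, 2-oxoglutarate and ascorbate. Outside the cell, lysyl oxidases use copper and a quinone made from their own residues to oxidise lysines of collagen and elastin to aldehydes, which then join neighbouring chains. In glioma and other tumours this cross-linking is known for stiffening the matrix, and LOX, PLOD2, P4HA1 and P4HA2 are textbook targets of the hypoxia-inducible factors.

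The 10 genes had 20 probe sets with a single symbol. Of these, 13 passed a filter on low values (a mean log2 value over the 6 arrays at or above the 40th percentile of all probe sets, about 9.87 intensity units), and each of the 10 genes kept at least 1. At all 13 the mean of either group lay above this floor, so none passed through the group in which it was high. The other 7 probe sets, 3 of LOXL2 and 1 each of LOX, LOXL4, P4HA1 and P4HA2, lay between 0.529 and 15.9 units on every array and their groups overlapped, so they give no level for their genes. Array medians ran from 16.2 to 19.3 units, and trimmed means from 137 to 168, the highest being that of control replicate 1. The groups were compared with limma on log2(intensity + 16), over 26603 probe sets and, with the brightest probe set of each gene, over 13720 genes. A value is said to rise, fall or be higher or lower where limma's Benjamini-Hochberg adjusted p was under 0.05, and SE is that of the fit. Unless 1 probe set a gene is named, values of the 10 genes are from the fit over probe sets. Those of all other genes are from the fit over genes.

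**Figure D1:**
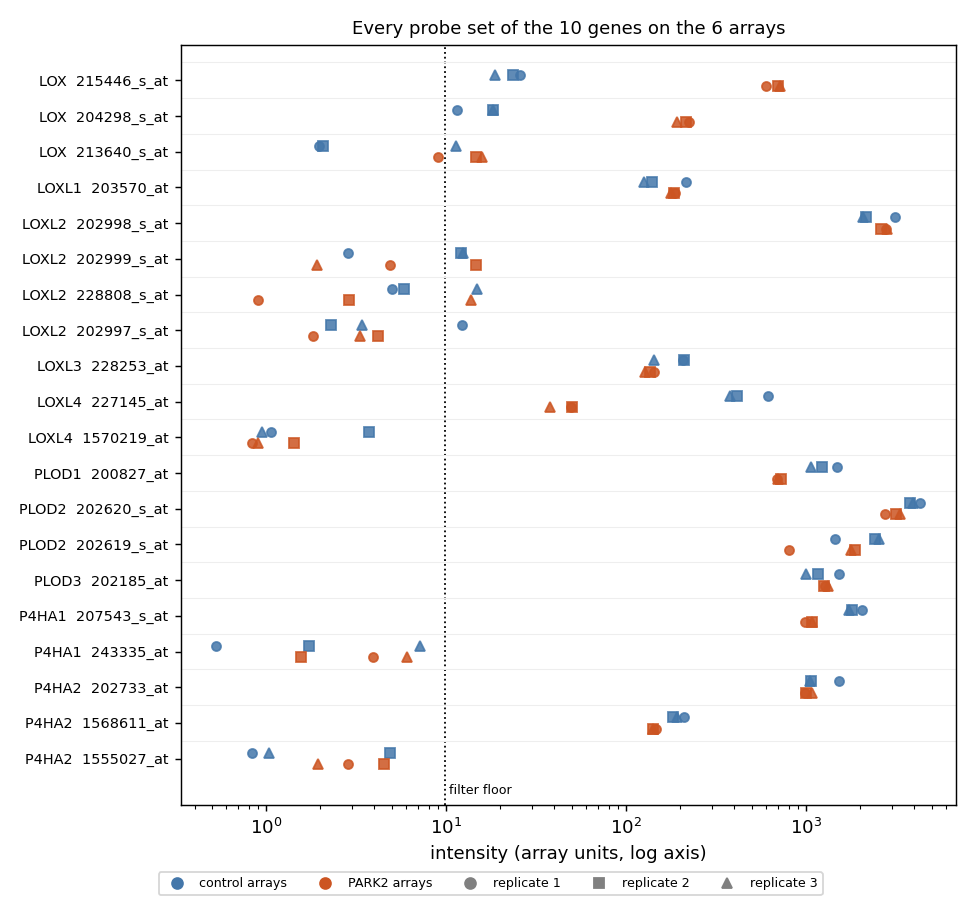
Intensity (log axis, array units) of all 20 probe sets of the 10 genes, with 1 point per array, control above PARK2 in each row and the replicate shown by the marker. The LOX probe sets 215446_s_at and 204298_s_at lie to the right in PARK2 arrays, LOXL4 227145_at lies to the left, and the dotted line marks the filter floor of 9.87.

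LOX, the lysyl oxidase after which the family is named, was the single gene of the 10 that was higher in PARK2 cells. Its probe set 215446_s_at read 25.9, 23.4 and 18.7 on the control arrays, replicates 1 to 3 in that order as throughout, and 596, 703 and 716 on the PARK2 arrays. Every PARK2 array was far above every control array, and the ratio of the group means was 29.7. In bulk RNA, more cells with a transcript and more RNA per cell cannot be told apart. On the log2 scale the difference was 4.15 (SE 0.16), with a 95% interval from 3.81 to 4.50. A second probe set, 204298_s_at, read 11.5, 18.3 and 18.2 in control and 224, 214 and 192 in PARK2 arrays, also without overlap. Its difference was 2.83 (SE 0.18), smaller than that of the first, and the ratio of the means was 13.1. The control readings are close to the array medians, so the sizes depend on the pseudocount: with 1 in place of 16 they were 4.84 and 3.66, and with 64 they were 3.08 and 1.78. The third probe set, 213640_s_at, was under the floor, at 1.96, 2.07 and 11.3 in control and 9.03, 14.6 and 15.9 in PARK2 arrays. All 3 LOX probe sets have names ending in _s_at, a suffix of the array maker for sets that can read more than 1 transcript.

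LOXL4, a lysyl oxidase that also carries scavenger receptor domains, fell. Its probe set 227145_at read 615, 416 and 378 in control and 49.5, 49.9 and 37.96 in PARK2 arrays. The groups were far apart, with the control mean 10.3 times the PARK2 mean. The difference was -2.95 on the log2 scale (SE 0.19, 95% interval from -3.35 to -2.55), or -3.31 and -2.26 with pseudocounts of 1 and 64. The other LOXL4 probe set, 1570219_at, was at most 3.71 on any array. With each array left out in turn, the difference of LOX at 215446_s_at ran from 4.08 to 4.23 and that of LOXL4 at 227145_at from -3.09 to -2.75.

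**Figure D2:**
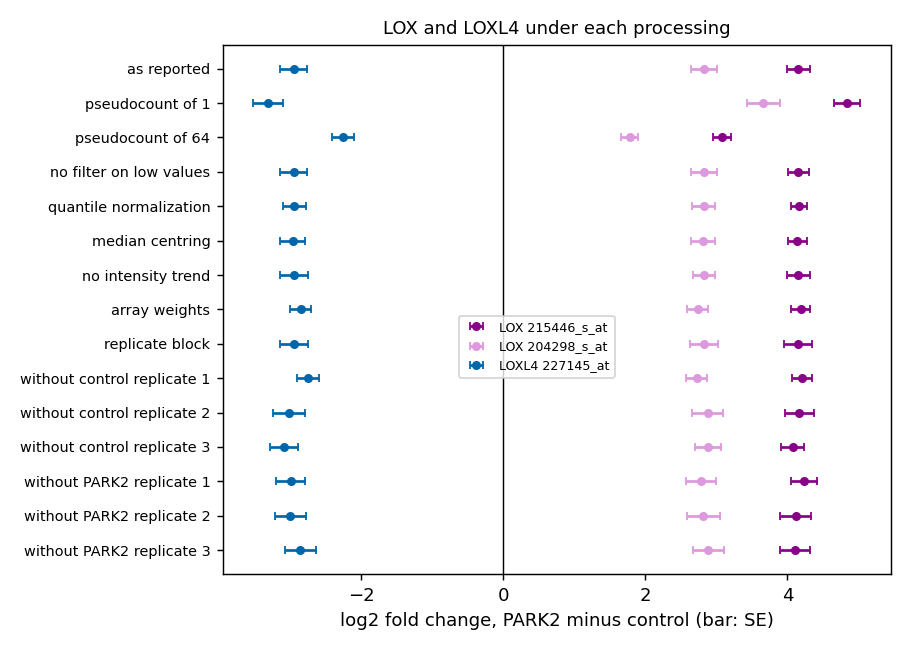
Log2 fold change, PARK2 minus control, of the LOX and LOXL4 probe sets past the filter under each processing tried, with bars of 1 SE. The pseudocount moved the sizes, LOX 215446_s_at between 3.08 and 4.84 and LOXL4 between -3.31 and -2.26, and the directions were the same in all settings drawn.

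The bases before the start of LOX and LOXL4 are shown because these genes differed in opposite directions. They are the 250 bases before the most upstream start that RefSeq lists (GRCh38.p14), written 5' to 3' on the strand of the gene, at chr5:122078260-122078509 (minus strand) for LOX and chr10:98268195-98268444 (minus strand) for LOXL4. Capitals mark the core of the hypoxia response element, ACGTG or GCGTG, searched on both strands (CACGT and CACGC on the strand shown), where matches may overlap and E-box motifs share these letters.
LOX: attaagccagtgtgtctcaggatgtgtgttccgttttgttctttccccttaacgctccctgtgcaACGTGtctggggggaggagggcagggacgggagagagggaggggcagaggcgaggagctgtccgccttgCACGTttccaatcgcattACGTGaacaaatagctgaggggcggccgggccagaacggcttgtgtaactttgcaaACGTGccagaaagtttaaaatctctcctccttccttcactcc
LOXL4: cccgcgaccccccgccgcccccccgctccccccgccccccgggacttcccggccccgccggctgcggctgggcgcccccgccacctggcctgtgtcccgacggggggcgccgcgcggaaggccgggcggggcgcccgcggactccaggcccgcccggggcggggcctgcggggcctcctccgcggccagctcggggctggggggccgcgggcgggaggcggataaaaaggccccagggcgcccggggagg
The LOX window holds 4 matches, starting 185, 116, 98 and 42 bases before the start, and the LOXL4 window holds 0. Of all 35116 windows of this length in the RefSeq table, 43.2% hold at least 1 match and 3.22% hold 4 or more. RefSeq lists 2 other starts for LOX, and the window before each holds 2 matches. These windows (chr5:122077175-122077424 and chr5:122077224-122077473) overlap, so their matches may be the same ones. The LOXL4 window is 86.4% G and C and that of LOX 55.2%, against a median of 58.0% over all windows. A match describes these letters and is not a binding site. Windows were matched for 9 of the 10 genes, and at the most upstream start 4 of the 9 hold a match: LOX, PLOD1 (2), PLOD2 (3) and P4HA1 (1). The windows of LOXL1, LOXL3, LOXL4, PLOD3 and P4HA2 hold 0 there. The window of a second LOXL3 start holds 1, so over all listed starts 5 of the 9 genes hold a match.

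The other lysyl oxidases differed less. LOXL1, which acts mainly on elastin, read 216, 140 and 127 in control and 187, 185 and 178 in PARK2 arrays. Control replicate 1 was the highest of the 6 and the other controls the lowest, so the groups overlapped. The difference of 0.20 (SE 0.18) did not pass, with a 95% interval from -0.18 to 0.59. LOXL2, an oxidase with scavenger receptor domains that also acts on basement membrane collagen, read 3142, 2161 and 2072 in control and 2795, 2608 and 2832 in PARK2 arrays at its probe set 202998_s_at. Here too control replicate 1 was the highest array and the other controls were below all PARK2 arrays. The difference was 0.18 (SE 0.14, interval from -0.12 to 0.48). Without control replicate 1 the differences were 0.42 for LOXL1 and 0.37 for LOXL2, and both passed. LOXL3, the remaining member with scavenger receptor domains, read 208, 211 and 143 in control and 143.1, 135 and 127 in PARK2 arrays. The groups did not overlap, but control replicate 3, at 143.4, was level with PARK2 replicate 1, and the difference of -0.41 (SE 0.17) did not pass. Without control replicate 3 it was -0.58 and passed. With 1 probe set a gene, LOXL3 also passed after quantile normalization (-0.38) and median centring (-0.42), and LOXL2 after quantile normalization (0.25). With array weights all 3 passed in that fit, at 0.34 for LOXL1, 0.32 for LOXL2 and -0.53 for LOXL3.

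Of the lysyl hydroxylases PLOD1 and PLOD2 fell and PLOD3 did not pass. PLOD1, which hydroxylates lysines in the helical part of collagen, read 1483, 1230 and 1061 in control and 692, 730 and 702 in PARK2 arrays. All PARK2 arrays were below all controls, and the difference was -0.80 (SE 0.14, 95% interval from -1.10 to -0.50). PLOD3, which also adds sugars to hydroxylysine, read 1522, 1161 and 994 in control and 1272, 1266 and 1328 in PARK2 arrays. The PARK2 arrays lay inside the range of the controls, with a difference of 0.09 (SE 0.15, interval from -0.22 to 0.40).

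PLOD2, which hydroxylates the lysines at the ends of the chains, had 2 bright probe sets that gave different calls. At 202620_s_at it read 4317, 3790 and 3927 in control and 2765, 3164 and 3310 in PARK2 arrays. The groups did not overlap, and the difference of -0.38 (SE 0.11, 95% interval from -0.62 to -0.14) passed narrowly. In the fit over probe sets it was no longer past the threshold without control replicate 2 (-0.42), PARK2 replicate 1 (-0.31) or PARK2 replicate 2 (-0.40). The same held in that fit without the filter on low values or the intensity trend of the variance model. At 202619_s_at PLOD2 read 1456, 2421 and 2549 in control and 805, 1870 and 1783 in PARK2 arrays. Replicate 1 was the lowest array of either group, and the PARK2 replicates 2 and 3 were above control replicate 1, so the groups overlapped. The difference of -0.57 (SE 0.25) was larger than at 202620_s_at and did not pass. It was -0.19 without PARK2 replicate 1, and -0.79 and past the threshold without PARK2 replicate 2. Each PARK2 array was below the control array of the same number, and with replicate numbers blocked the SE was 0.14 and the difference passed. It also passed with array weights (-0.56).

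**Figure D3:**
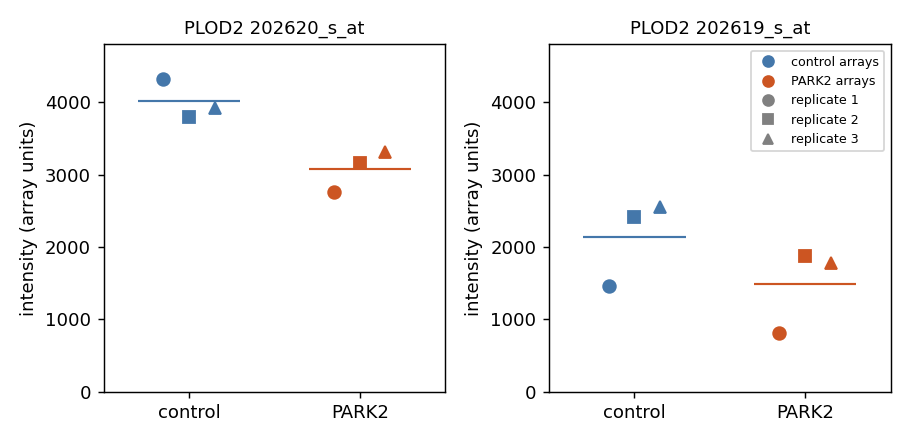
Intensity (array units) of the 2 bright PLOD2 probe sets, with 1 point per array, the marker giving the replicate and a line at the mean of each group. At 202620_s_at the groups are apart (means 4012 and 3080), and at 202619_s_at replicate 1 is the lowest of both groups (1456 in control and 805 in PARK2).

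The prolyl 4-hydroxylase subunits differed in size of change. P4HA1, the widely expressed alpha subunit, read 2052, 1805 and 1734 in control and 987, 1073 and 1080 in PARK2 arrays. All PARK2 arrays were below all controls, and P4HA1 fell by 0.82 on the log2 scale (SE 0.13, 95% interval from -1.09 to -0.56). P4HA2, which pairs with the same beta subunit, read 1524, 1062 and 1048 in control and 983, 1001 and 1079 in PARK2 arrays at 202733_at. Control replicate 1 stood above all the other arrays, the rest overlapped, and the difference of -0.22 (SE 0.15, interval from -0.54 to 0.09) did not pass and was -0.05 without control replicate 1. A dimmer P4HA2 probe set, 1568611_at, read 209, 183 and 192 in control and 147, 142 and 140 in PARK2 arrays. These groups did not overlap, and the difference of -0.41 (SE 0.16) did not pass, though it passed after quantile normalization (-0.39), median centring (-0.42) and with array weights (-0.37).

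Over the family, 2 of the 13 probe sets past the filter were higher and 4 lower, beside 9.1% higher and 11.3% lower (20.4% in either direction) of all probe sets tested. The groups did not overlap at 8 of the 13, beside 35.1% of all probe sets. With 1 probe set a gene, 1 of the 10 genes was higher (LOX) and 4 lower (LOXL4, PLOD1, PLOD2 and P4HA1), beside 13.3% and 15.6% of all genes tested (28.8% in either direction). On these probe sets the groups did not overlap for 6 of the 10 genes, beside 39.5% of all genes. Without control replicate 1 the counts were 3 higher and 4 lower genes, and 4 higher and 4 lower probe sets. Since the genes were picked on this comparison, nothing is read from these counts.

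**Figure D4:**
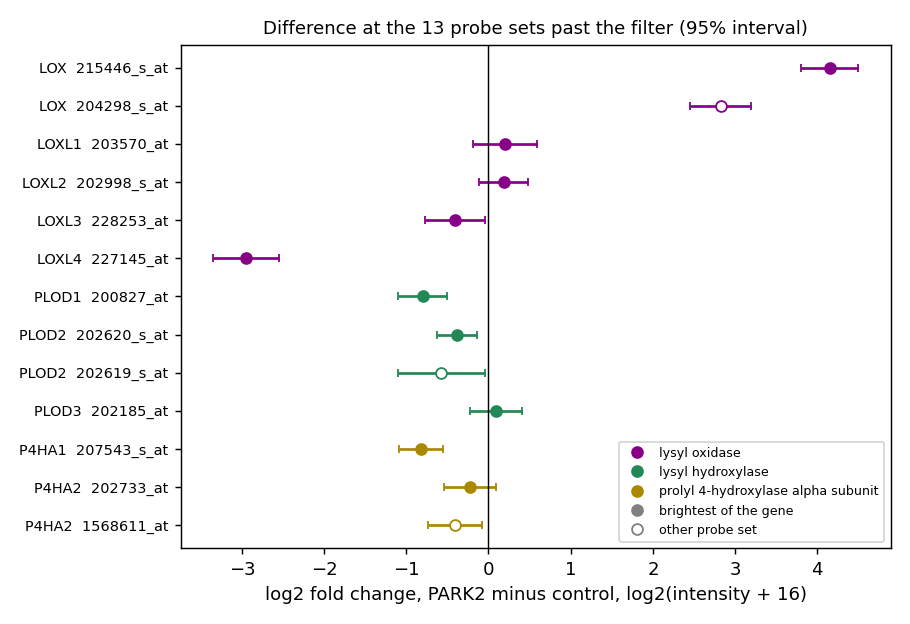
Log2 fold change, PARK2 minus control, at the 13 probe sets past the filter, with 95% intervals from limma, coloured by the role of the enzyme and filled for the brightest probe set of a gene. LOX lies at 4.15 and 2.83 and LOXL4 at -2.95, while the other 10 probe sets lie between -0.82 and 0.20.

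The genes most like LOX across the 6 arrays, by Pearson's correlation of log2 values among 13710 other genes, were CD55 (0.9998), ADAMTS1 (0.9998) and MAGEA6 (0.9997, a gene with near-identical relatives). Those most like LOXL4 were ATP5F1A (0.9996), TRIB1 (0.9995) and EHD4 (0.9994). A gene that separates the 2 groups cleanly scores high on this measure, and 187 genes were above 0.99 with LOX and 137 with LOXL4. The likeness takes no account of size: ATP5F1A differed by -0.72 and TRIB1 by -2.34.

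Of 15 tested genes for the folding, modification and export of collagen, 4 rose and 2 fell (median -0.06, beside -0.0026 over all genes tested), so 40% passed in either direction, beside 28.8% of all genes. This list and the lists after it were drawn up with earlier results of these data known. Their shares and p-values are therefore descriptions and no independent test. FKBP14, a prolyl isomerase of the endoplasmic reticulum, rose from 244 ± 31.6 (SD, n = 3) to 446 ± 64.1 units (a log2 difference of 0.83 with SE 0.16, adjusted p 2.9e-05 by limma). The channel gene TMEM38B (0.69), MIA3, which helps procollagen leave the endoplasmic reticulum (0.72), and the collagen-binding SPARC (0.47) also rose. CRTAP, the partner of prolyl 3-hydroxylase 1, fell from 1895 ± 309 to 1061 ± 97.2 (-0.82, SE 0.14, limma's adjusted p 2.1e-06), and the isomerase PPIB fell (-0.54). P4HB, the beta subunit of prolyl 4-hydroxylase, was at 5845 ± 965 in control and 4966 ± 159 in PARK2 arrays (-0.22, limma's adjusted p 0.157). SPARC, PPIB and P4HB were named after their values were seen. Without control replicate 3 the lower count was 5.

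Of 9 tested genes for the activation of LOX and the processing of procollagen, 1 rose and 2 fell (median -0.05), and this 33.3% is near the 28.8% of all genes that passed. FN1, the gene of fibronectin, a matrix protein that binds LOX, rose from 996 ± 173 to 2434 ± 51.5 (1.29, SE 0.14, limma's adjusted p 3.6e-12). As the mean of its probe sets the difference of FN1 was smaller, at 0.87, and still passed. EFEMP2 codes for fibulin-4, which brings LOX to elastin. It fell from 58.0 ± 14.7 to 17.7 ± 8.82 (-1.15, SE 0.22, limma's adjusted p 2.3e-05), a difference of -1.76 at a pseudocount of 1 and of -0.58 at 64. BMP1, the protease that removes the LOX propeptide, named after its value was seen, fell by 0.73 on the log2 scale, though PARK2 replicate 1 (73.0) was above control replicate 3 (72.4). The lower count was 1 without control replicate 1 or PARK2 replicate 2.

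Of 15 tested collagen and elastic fibre genes, whose products are substrates or partners of these enzymes, 6 rose and 3 fell (median 0.23), together 60% of the list, beside 28.8% of all genes (13.3% higher and 15.6% lower). FBN2, a microfibril protein, rose from 12.8 ± 5.58 to 376 ± 12.7 (3.78, SE 0.18, limma's adjusted p 9.6e-28), with 4.86 and 2.52 at pseudocounts of 1 and 64 and 2.32 as the mean of its probe sets. The fibrillar collagen gene COL11A1 rose from 1182 ± 168 to 3007 ± 380 (1.34, SE 0.13, limma's adjusted p 5.7e-13). The other 4 that rose, named after their values were seen, were COL4A1 (0.96), COL5A2 (0.89), COL4A2 (0.57, which did not pass without control replicate 2) and COL1A2 (0.56). COL1A1 was at 85.3 in control and 65.0 in PARK2 arrays (-0.32) and did not pass the threshold. ELN and COL3A1 did not pass the filter on low values. COL1A1, ELN and COL3A1 were also named after their values were seen. COL27A1, a fibrillar collagen, fell from 234 ± 36.1 to 72.1 ± 13.8 (-1.50, SE 0.17, limma's adjusted p 9.2e-11), and the collagen VI genes COL6A3 (-1.31) and COL6A1 (-0.50, named after its value was seen) fell. COL6A1 did not pass as the mean of its probe sets (-0.38). The collagen VI gene COL6A2 (0.03), also named after its value was seen, did not pass. Other collagens and LOX-binding proteins were not looked at beyond this list.

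Of 11 tested genes for the supply of copper, iron and ascorbate, 5 rose and 1 fell (median 0.30), or 54.5% in either direction, beside 28.8% of all genes. The copper chaperone ATOX1 rose from 749 ± 225 to 1122 ± 42.1 (0.62, SE 0.15, limma's adjusted p 0.0012), and ATP7A, the pump that loads copper onto secreted enzymes, from 119 ± 26.6 to 180.2 ± 18.5 (0.55, SE 0.17, limma's adjusted p 0.010). SLC31A2 (0.51), a copper transporter homologue, and the iron genes TFRC (0.33) and FTL (0.30), named after their values were seen, also rose, but neither of these iron genes passed when any array other than control replicate 1 was left out. For FTL the groups overlapped, with PARK2 replicate 3 (9895) below control replicate 1 (9915). ATP7B, the related copper pump, fell from 37.9 ± 9.78 to 11.8 ± 1.46 (-0.94, SE 0.22, limma's adjusted p 6.6e-04), a difference of -1.58 at a pseudocount of 1 and of -0.42 at 64. Without control replicate 3 the difference of ATOX1 was 0.38 and still passed. The higher count was 6 without control replicate 1 and between 1 and 3 without any other array. ATP7A did not pass without control replicate 3 or PARK2 replicate 2, nor SLC31A2 without control replicate 2, control replicate 3 or PARK2 replicate 1. Without control replicate 3, 2 genes were lower.

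Of 19 tested genes of the hypoxia response, members of the family left out, 3 rose and 7 fell (median -0.17), which makes 52.6%, beside 28.8% of all genes. The list includes regulators of the response (HIF1A, EPAS1, ARNT, HIF1AN and VHL), and none of these passed. Its median is the value of VHL. ADM, a peptide hormone gene, rose from 488 ± 55.3 to 1504 ± 43.1 (1.60, SE 0.14, limma's adjusted p 7.2e-15), as did the oxygen sensor EGLN3 (0.57) and VEGFA (0.39), named after their values were seen. EGLN3 did not pass without control replicate 2 or PARK2 replicate 2. VEGFA, whose groups overlapped, did not pass without control replicate 2 or 3 or PARK2 replicate 2 or 3. DDIT4 (-1.47), PFKFB4 (-1.21) and NDRG1 (-1.18) fell, each with groups that did not overlap. KDM3A (-0.56), BHLHE40 (-0.49), PDK1 (-0.43) and BNIP3 (-0.34), named after their values were seen, also fell. BNIP3 did not pass without control replicate 2 or without any 1 PARK2 replicate. PDK1 did not without control replicate 2 or PARK2 replicate 1 or 3, nor BHLHE40 without PARK2 replicate 2. As the mean of a gene's probe sets, VEGFA (0.26), PDK1 and BHLHE40 did not pass. HIF1A, the gene of the regulated subunit, was at 7190 ± 363 in control and 7676 ± 236 in PARK2 arrays (0.09, limma's adjusted p 0.578). The higher count was 1 without control replicate 2 or PARK2 replicate 2. LOX differed in the direction of the 3 list genes that rose, and P4HA1 and PLOD2 in that of the 7 that fell. Whether the hypoxia response had a part in these differences was not tested.

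**Figure D5:**
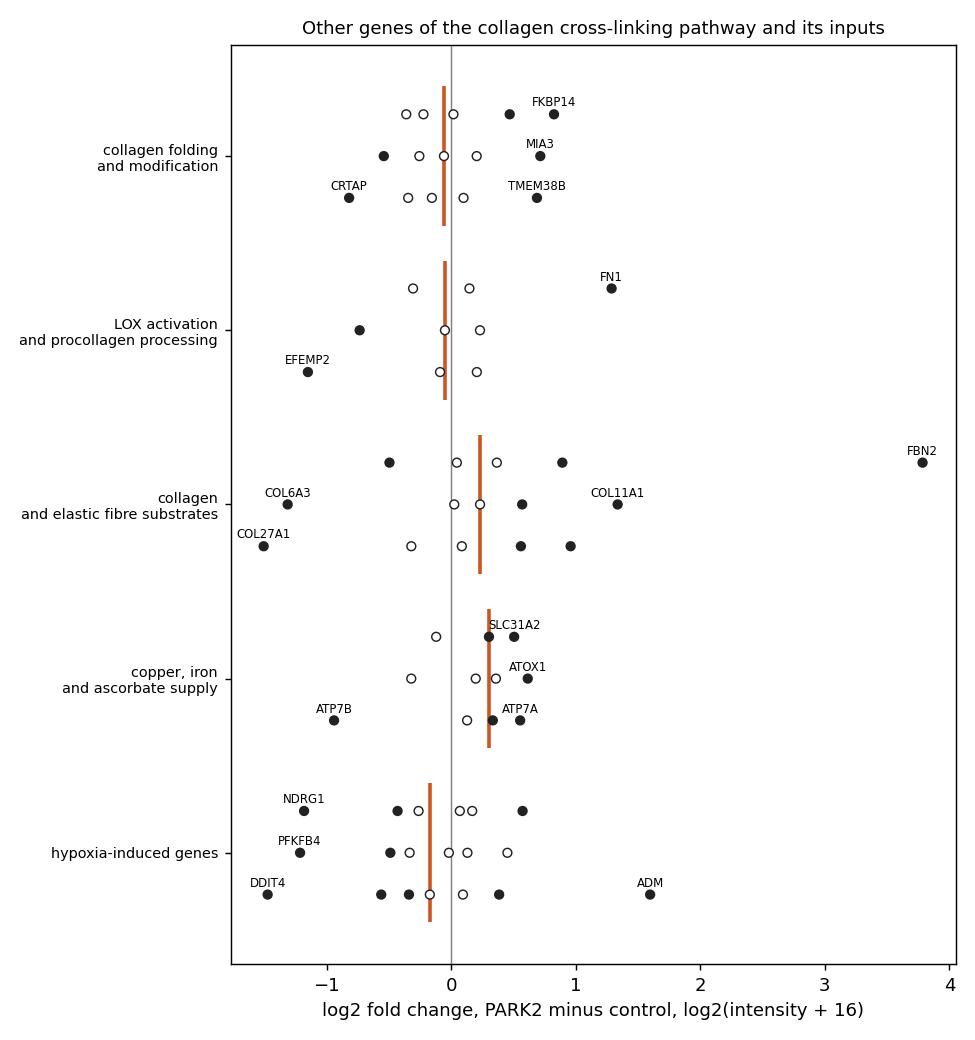
Log2 fold change, PARK2 minus control, of the tested genes in 5 lists, with filled points past limma's threshold, open points not, and a bar at the median of each list. Points lie on either side of 0 in every list, and the medians run from -0.17 (hypoxia-induced genes) to 0.30 (copper, iron and ascorbate supply). The list labelled hypoxia-induced genes also holds regulators such as HIF1A and VHL.

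The glial and neural markers VIM (8898 ± 444 in control and 8921 ± 523 in PARK2 arrays, SD, n = 3), NES (1426 ± 277 and 1306 ± 246) and FABP7 (2903 ± 440 and 2388 ± 213) were bright in both groups. GFAP rose from 250.98 ± 75.4 to 362 ± 39.7, though PARK2 replicate 1 (319) was below control replicate 1 (338). S100B fell from 366 ± 119 to 125 ± 5.90, SLC1A3 fell, ALDH1L1 was at 19.8 and 19.7, and AQP4 was under the floor. The summed level of 6 fibroblast markers ran from 2622 to 3529 over control arrays and from 1670 to 2064 over PARK2 arrays. Of the 5 past the filter 3 fell (PDGFRA, THY1 and FAP), in the same direction as PLOD1 and P4HA1 and opposite to LOX. Whether these differences are linked was not tested. In control and PARK2 arrays, THY1 was at 1705 and 965, PDGFRA at 1311 and 804 and FAP at 110 and 41.1. PDGFRB (20.2 and 27.8) and DCN (20.8 and 19.6) were dim and did not pass the threshold. LUM (4.92 and 11.7) did not pass the filter. The sums of the 3 measured leukocyte markers were at most 42.4 units. Epithelial markers summed to between 209 and 315 over control arrays and between 129.9 and 137 over PARK2 arrays, mostly KRT18, with EPCAM and CDH1 under the floor, and endothelial markers summed to 99.5 to 148 over all arrays.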

How the data were processed

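Gene expression was measured on 6 arrays, 3 of U251 cells with PARK2 and 3 with GFP, and groups and replicate numbers were taken from the sample titles. The deposited table held 54675 probe sets with linear intensity values; the submitters' processing notes name the tools GCOS and MAS5, and how the authors scaled the arrays is not given in the sources used here. Probe sets were named through GEO's platform annotation. Of these, 41091 had a single symbol. Promoters were read from a RefSeq table (GRCh38.p14).

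Values were taken as log2(intensity + 16) without further normalization. The 62 control probe sets and those without a single symbol, or below the 40th percentile of mean log2 values, were left out. Groups were compared with limma 3.58.1 (R 4.3.3) with an intensity trend and Benjamini-Hochberg adjustment, tested first on simulated data. In the gene fit the prior degrees of freedom were 60.8 (10.5 without the trend) against 4 residual ones, so small p-values lean on the variance model. Named list genes were up to 4 per list with the largest change among those past the threshold without overlap of the groups; the 3 genes most like LOX and LOXL4 were also named. The members and lists were chosen with earlier results of these data known. The number of arrays limits the precision. No value of the transgene is given here, and the labels were taken as they stand.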

Additional observations from a re-analysis of the deposited data

How the results depend on the processing

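The directions of LOX, LOXL4, PLOD1 and P4HA1 and their calls held under every setting tried: pseudocounts of 1 and 64, no filter, quantile normalization, median centring, no intensity trend, array weights, the mean of a gene's probe sets, a threshold of 0.01, the replicate block and each array left out. The family was picked for the opposite changes of LOX and LOXL4 in these same arrays. That their calls held therefore describes the processing and is no support for the differences. No setting moved the median of all genes by more than 0.1. Array weights gave 7 lower member probe sets, 3 higher member genes, 4 lower genes of collagen folding, 2 higher genes of LOX activation, 2 lower copper, iron and ascorbate genes and 5 higher hypoxia genes. Quantile normalization gave 2 higher member genes, 4 lower folding genes and 5 higher hypoxia genes. Without the filter there were 1 lower gene of LOX activation, 2 higher copper, iron and ascorbate genes and 1 higher hypoxia gene; the copper, iron and ascorbate list had 3 higher genes without the trend and 1 at a threshold of 0.01. More genes or probe sets were adjusted over without the filter; otherwise the cause was not tested.

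With each array left out, counts ran from 2 to 4 for higher and 3 to 5 for lower member probe sets, 1 to 3 for higher and 3 to 5 for lower member genes, 2 to 5 for lower folding genes, 1 to 2 for lower LOX activation genes, 1 to 6 for higher and 1 to 2 for lower copper, iron and ascorbate genes, and 1 to 4 for higher hypoxia genes. Whether the replicate numbers pair the arrays was not settled by either set of genes used. Deviations of same-numbered arrays correlated at 0.168, 0.045 and 0.065 for replicates 1 to 3 over all genes tested. Over the genes brighter than the median they correlated at 0.495, 0.125 and 0.195. In both sets PARK2 replicate 2 was most like control replicate 3 (0.069 and 0.277). Among the brighter genes control replicate 2 was most like PARK2 replicate 3 (0.180). The values given have no block. With the replicate block 1556 genes were higher and 1897 lower, against 1818 and 2139, the member counts were 1 higher and 4 lower genes, and PLOD2 at 202619_s_at (-0.57) passed, which made 5 lower member probe sets. Of the list genes that had passed, VEGFA alone did not with the block.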
